A study of Mus musculus with 6 samples.

Results

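The genes described here encode the synaptic vesicle and its release machinery, and were taken as a set of 37 symbols. They cover vesicle membrane proteins, synapsins, calcium sensors, SNAREs, complexins, and priming and active zone proteins. The set was chosen with earlier results of these data known. The symbols matched 38 of the 43346 gene models in the deposited count table, because Pclo labels both the coding gene and a separate long non-coding model. All 38 passed the filter on low counts, beside 16934 models in all. RNA came from the cerebellum of mice aged 15 months, 3 Tmem106b+/+ (WT) and 3 Tmem106b-/- (KO), and each genotype held 1 female and 2 males. Each mouse gave 1 library. TMEM106B sits in the membrane of lysosomes and late endosomes, and the series asks what its loss does to the cerebellum and its Purkinje cells. The knockout is labelled as homozygous, and the labels used here name no tissue-specific driver or allele design.

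Transmitter is stored in vesicles that dock at the active zone, a protein scaffold on the presynaptic membrane. Priming proteins of the MUNC13 and RIM families bring the vesicle SNARE synaptobrevin together with the membrane SNAREs syntaxin and SNAP-25, and calcium binding to a synaptotagmin then drives fusion. In the cerebellum the granule cells supply most glutamatergic terminals, while Purkinje cells, molecular layer interneurons and Golgi cells release inhibitory transmitter.

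Of the 38 models, 2 fell in KO and 0 rose. These were Sv2c, which encodes a glycoprotein of the synaptic vesicle membrane, and Doc2b, which encodes a cytosolic calcium sensor with tandem C2 domains. Sv2c stood at 51.6% and Doc2b at 67.6% of the WT mean. Among the 36 that did not pass, Snap25, Vamp2, Syt1 and Syn1 had KO means between 97.3% and 100.4% of WT, and Vamp1, Nsf and Syt2 between 88.6% and 89.0%. The lowest of the 36 were Syt5 at 59.4% and Doc2a at 62.6%, both scarce, and the highest was the non-coding Pclo model at 118%. A change was called at an adjusted p under 0.05, from the quasi-likelihood test of edgeR, adjusted by Benjamini and Hochberg's method over all genes tested. By this rule 0.283% of all genes were called, 0.148% lower and 0.136% higher, beside 5.26% of the 38 called lower. Because the set was chosen with earlier results known, its share is not independent of these data.

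The SV2 family has 3 members in the mouse, and the sequence before each of their starts is shown because Sv2c was called lower and its paralogs Sv2a and Sv2b were not. Whether the paralogs differ from each other could not be settled by the test of their ratios. With 3 against 3 mice it allows no p below 0.1, as given with those ratios. Each line gives the 250 bases upstream of the RefSeq start site (GRCm38.p6, the same assembly as mm10), written 5′ to 3′ on the strand of the gene. Capitals mark the GC box, GGGCGG or its reverse complement. The last 76 bases of the Sv2a line lie inside the gene model of the count table, which starts earlier than the RefSeq transcript, and the other 2 starts coincide.
Sv2c (chr13:96132578-96132827, minus strand): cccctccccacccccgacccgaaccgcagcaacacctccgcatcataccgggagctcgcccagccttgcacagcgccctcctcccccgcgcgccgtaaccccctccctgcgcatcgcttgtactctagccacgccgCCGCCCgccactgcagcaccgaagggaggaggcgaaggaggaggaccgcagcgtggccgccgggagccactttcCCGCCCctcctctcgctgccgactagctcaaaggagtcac
Sv2a (chr3:96180977-96181226, plus strand): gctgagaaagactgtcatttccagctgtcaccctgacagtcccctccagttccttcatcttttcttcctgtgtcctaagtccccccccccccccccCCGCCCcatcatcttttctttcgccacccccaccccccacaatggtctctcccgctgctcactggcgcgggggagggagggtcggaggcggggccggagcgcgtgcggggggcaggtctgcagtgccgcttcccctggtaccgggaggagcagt
Sv2b (chr7:75309263-75309512, minus strand): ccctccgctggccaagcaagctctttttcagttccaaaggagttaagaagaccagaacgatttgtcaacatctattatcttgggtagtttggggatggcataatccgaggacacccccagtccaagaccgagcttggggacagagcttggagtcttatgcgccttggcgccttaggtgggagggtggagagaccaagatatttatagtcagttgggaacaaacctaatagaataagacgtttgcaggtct

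The Sv2c window held 2 GC boxes and 70.8% G and C, the Sv2a window 1 GC box and 66.0%, and the Sv2b window 0 GC boxes and 48.8%. In CpG dinucleotides the windows counted 26, 13 and 7. RefSeq windows were found for 27 of the 37 symbols, Doc2b not among them. A GC box lay in 20 of these 27 (74.1%) and in 32.7% of all 32851 RefSeq windows of the same length. Each member gave 1 window, the one nearest the start of its gene model, while the 32851 can hold more than 1 per gene. The Cplx2 window lay 68793 bases from that start and the Syt11 window 2565 bases. The letters TATAAA, searched on both strands like every motif here, lay in 1 of 27, Sv2b, and in 12.4% of all windows. The left part of the RE1 element, TTCAGCACC, lay in 1 of 27, Syn1, and in 0.301% of all windows. Syn1 also held the only cyclic AMP response element, TGACGTCA, among the 27 (1.55% of all windows). These matches describe letters and not binding.

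Levels below are counts relative to the library total, as CPM, with the total scaled by the trimmed mean of M values (TMM), and levels of different genes are compared as CPM per kb of gene model. Library totals ran from 25245778 to 31135185 counts, and members held between 8 and 106462 counts in a library. Tmem106b, which checks the labels, averaged 245 ± 19.4 CPM in WT mice and 66.8 ± 3.64 CPM in KO mice (SD, n = 3 each), with 62.7 to 69.7 CPM in the KO libraries. The cerebellar markers Gabra6 and Cbln3 stood at 787 ± 33.0 and 2109 ± 206 CPM in WT (SD, n = 3). The female WT mouse, replicate 1, stood apart in choroid plexus genes, whose summed level was 66.5 CPM there and between 1589 and 4995 CPM in the other 5 libraries. The female KO mouse, replicate 1, stood apart in GC content: genes whose transcript held 54.4% or more G and C, the upper quartile bound, had a median log2 difference of -0.30 from the WT mean in it, against -0.05 to 0.09 in the other 5 libraries.

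Sv2c was detected at 15.9, 12.8 and 12.1 CPM in WT replicates 1 to 3 and at 7.48, 5.87 and 7.71 CPM in KO replicates 1 to 3. All KO mice lay below all WT mice, and the female pair and the males showed the same direction. The WT mean was 13.6 ± 2.05 CPM and the KO mean 7.02 ± 1.00 CPM (SD, n = 3 each). The log2 fold change was -0.95 (standard error, SE, 0.14) at an adjusted p of 0.0465 in edgeR. The gene (ENSMUSG00000051111) lies on chromosome 13 at 95959443 to 96132577 of mm10 and held 171 to 479 counts per library. Over 14 alternative fits its fold change ran from -1.07 to -0.86, and it passed in 10. The call was lost without WT replicate 1 (edgeR adjusted p = 0.0604), WT replicate 2 (0.223), WT replicate 3 (0.297) or KO replicate 2 (0.184).

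Its paralogs, Sv2a and Sv2b, are far more abundant in this tissue. Per kb, Sv2a was at 153 ± 10.4, Sv2b at 62.7 ± 4.51 and Sv2c at 3.05 ± 0.46 CPM per kb in WT (SD, n = 3 each), in an order that no mouse reversed. Sv2a was at 767, 684 and 683 CPM in the WT mice and at 572, 661 and 703 CPM in the KO mice, so the groups overlapped. Sv2b was at 340, 387 and 346 CPM in WT and at 365, 341 and 363 CPM in KO, again with overlap. Their log2 fold changes were -0.14 (SE 0.09) and -0.0041 (SE 0.07), with edgeR adjusted p-values of 0.716 and 0.991. Within each library the log2 ratio of Sv2c to Sv2a was -5.58, -5.73 and -5.81 in WT and -6.25, -6.80 and -6.50 in KO, which does not depend on how libraries are scaled. The ratio of Sv2c to Sv2b was -4.41, -4.91 and -4.83 in WT and -5.60, -5.84 and -5.54 in KO. In both ratios every KO mouse lay below every WT mouse, with mean differences of -0.80 and -0.94. The exact two-sided permutation p was 0.1 for each, the smallest that 3 against 3 allows, and 0.333 after Benjamini-Hochberg adjustment over the 10 paralog pairs compared.

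Doc2b was detected at 147, 143 and 152 CPM in WT replicates 1 to 3 and at 97.3, 92.9 and 108.6 CPM in KO replicates 1 to 3. The WT mice varied little, and all KO mice lay below them. The mean went from 147.3 ± 4.66 to 99.6 ± 8.10 CPM (SD, n = 3 each), with a log2 fold change of -0.57 (SE 0.08) at an adjusted p of 0.0396 in edgeR. The gene (ENSMUSG00000020848) lies on chromosome 11 at 75768966 to 75796049 of mm10. The difference was -0.60 in the female pair and -0.55 in the males on the log2 scale. Over 14 alternative fits it ran from -0.62 to -0.50, and it passed in 11. The call was lost without WT replicate 2 (edgeR adjusted p = 0.172), WT replicate 3 (0.331) or KO replicate 2 (0.20). Doc2a, the related sensor of forebrain neurons, was near the limit of detection, with 15, 20 and 18 counts in WT and 12, 10 and 8 in KO. Its log2 fold change was -0.68 (SE 0.34, edgeR adjusted p = 0.635), and the ratio of Doc2b to Doc2a overlapped between genotypes (exact permutation p = 0.9, n = 3 each, adjusted p = 1).

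**Figure D1:**
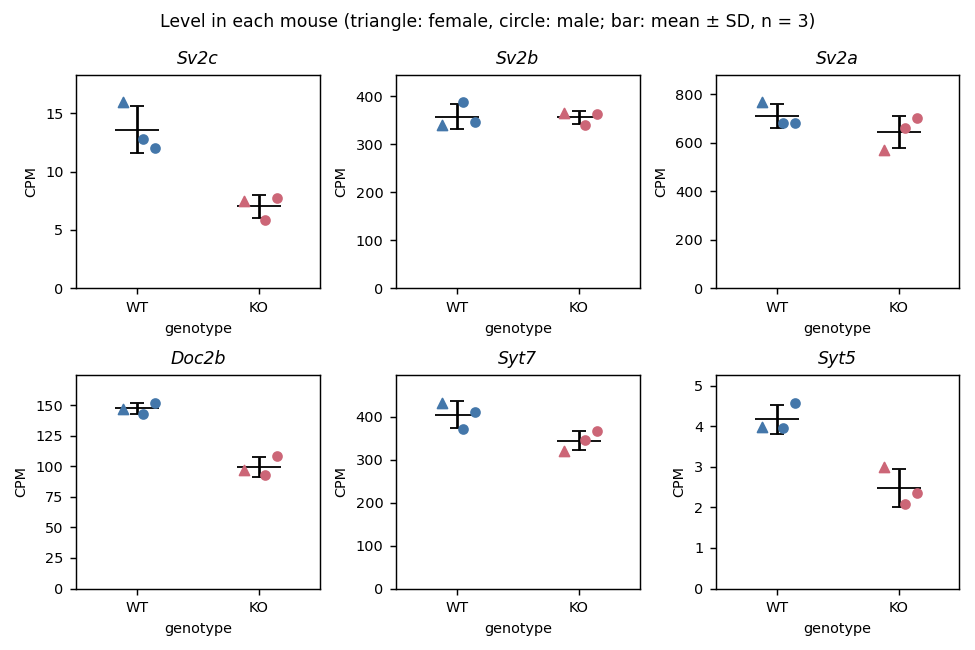
Level of 6 release genes in each mouse, in CPM from 0 on a linear axis, by genotype; triangles are the female and circles the male mice, and bars give the mean ± SD (n = 3). Sv2c, Doc2b, Syt7 and Syt5 have no overlap between genotypes, and Sv2a and Sv2b overlap; Sv2c and Doc2b passed the test.

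Markers of Purkinje cells were lower in the same KO libraries. All 10 of 10 listed had a log2 fold change below 0, 5 of them were called, and their summed level was 10501 to 11368 CPM in WT and 6882 to 7956 CPM in KO, with none at 0. Their fold changes ran from -0.65 to -0.19, so Sv2c, at -0.95, lay outside this range and Doc2b, at -0.57, within it. Their part in the Sv2c and Doc2b results was not tested. In tissue RNA, fewer cells of a type and less RNA per cell cannot be told apart. For granule cells the median of 8 markers was 0.11, with 7 above 0 and 0 called in edgeR (3 higher at an unadjusted p under 0.05), and their summed level ran from 5939 to 6541 CPM in WT and from 6464 to 6845 CPM in KO. The 6 genes listed for molecular layer interneurons had a median of 0.0014 with 0 called. Among them Gad1, the gene of a GABA-making enzyme, is not particular to these cells. It was lower in each KO mouse (-0.21, SE 0.06, edgeR adjusted p = 0.353), and the others ran from -0.01 to 0.06. The 4 markers of Golgi cells had a median of -0.10. By library, their median log2 difference from the WT mean was -0.39, 0.02 and 0.14 in KO replicates 1 to 3. The 6 genes listed as general neuronal markers, which need not mark each neuron type alike, had a median of -0.16. Of these, 5 were below 0 and 0 were called or under 0.05 unadjusted. They summed to 2485 to 2901 CPM in WT and 2335 to 2551 CPM in KO. By library, their median log2 difference from the WT mean was 0.14, -0.09 and -0.04 in WT replicates 1 to 3. In KO replicates 1 to 3 it was -0.29, -0.14 and -0.03. Microglial genes summed to 96.6 to 116 CPM in WT and 128 to 160 CPM in KO, with 5 of 6 above 0, 3 of them at an unadjusted p under 0.05, and 0 called. Of 5 genes of astrocytes and Bergmann glia, 1 rose: Gfap, the intermediate filament of astrocytes, averaged 195 ± 43.5 CPM in WT mice and 358 ± 23.4 CPM in KO mice (SD, n = 3 each; edgeR adjusted p = 0.0214), while the list summed to 2636 to 2805 CPM in WT and 2543 to 2764 CPM in KO. The 5 red blood cell genes were all above 0 (median 0.56), 3 at an unadjusted p under 0.05 and 0 called, and summed to 71.8 to 88.5 CPM in WT and 77.2 to 157 CPM in KO. The part of these lists in the results of the members was not tested either.

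Among the other vesicle membrane proteins no member passed, although all 7 genes of this group had fold changes below 0 (median -0.10). Slc17a7, the vesicular glutamate transporter VGLUT1 of granule cell terminals, averaged 479 ± 33.7 CPM in WT mice and 448 ± 54.3 CPM in KO mice (SD, n = 3 each). Its KO mice spread from 392 CPM in the female to 501 CPM in male replicate 3, and the latter lay inside the WT range of 454 to 517 CPM. Syp, which encodes synaptophysin, a major membrane protein of the vesicle, was at 1084 ± 70.6 and 1038 ± 52.5 CPM. The synaptogyrin genes Syngr1 and Syngr3 had log2 fold changes of -0.09 (SE 0.08) and -0.10 (SE 0.08). In the 6 genes of this group other than Sv2c the ranges of the genotypes overlapped.

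The 9 calcium sensors had fold changes from -0.76 to 0.06 (median -0.17), and 5 were below 0. Besides Doc2b, 3 of the 9 had all KO mice below all WT mice without passing over all genes, as did 6.35% of all genes tested. Syt5, a synaptotagmin of secretory vesicles, was scarce, at 3.99, 3.95 and 4.58 CPM in WT and 2.99, 2.09 and 2.35 CPM in KO. Its log2 fold change was -0.76 (SE 0.19), at an unadjusted p of 0.00311 and an adjusted p of 0.203 in edgeR, and its adjusted p stayed between 0.079 and 0.771 over the alternatives. Syt7, the slow, high-affinity sensor of asynchronous release and facilitation, was at 432, 372 and 411 CPM in WT and 321, 346 and 366 CPM in KO. This is a difference of -0.24 (SE 0.08, edgeR adjusted p = 0.419), and it was -0.15 in a fit of the males alone. Doc2a, with its 8 to 20 counts, was the third of these genes.

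The fast sensors Syt1 and Syt2 drive synchronous release, and both were abundant. Syt2, the form of fast hindbrain synapses, was at 658, 645 and 594 CPM in WT and 527, 564 and 596 CPM in KO, with 1 KO mouse inside the WT range (log2 fold change -0.17, SE 0.08, edgeR adjusted p = 0.563). Syt1 was at 648, 677 and 644 CPM in WT and 691, 609 and 671 CPM in KO, and its fold change was 1.4e-04 (SE 0.07). The log2 ratio of Syt2 to Syt1 averaged -0.05 ± 0.07 in WT and -0.22 ± 0.15 in KO (SD, n = 3 each, exact permutation p = 0.2, adjusted p = 0.5). Syt3, Syt4 and Syt11, whose products have been linked to endocytosis and receptor or dense-core vesicle traffic, had fold changes of 0.01 to 0.06, and their groups overlapped.

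**Figure D2:**
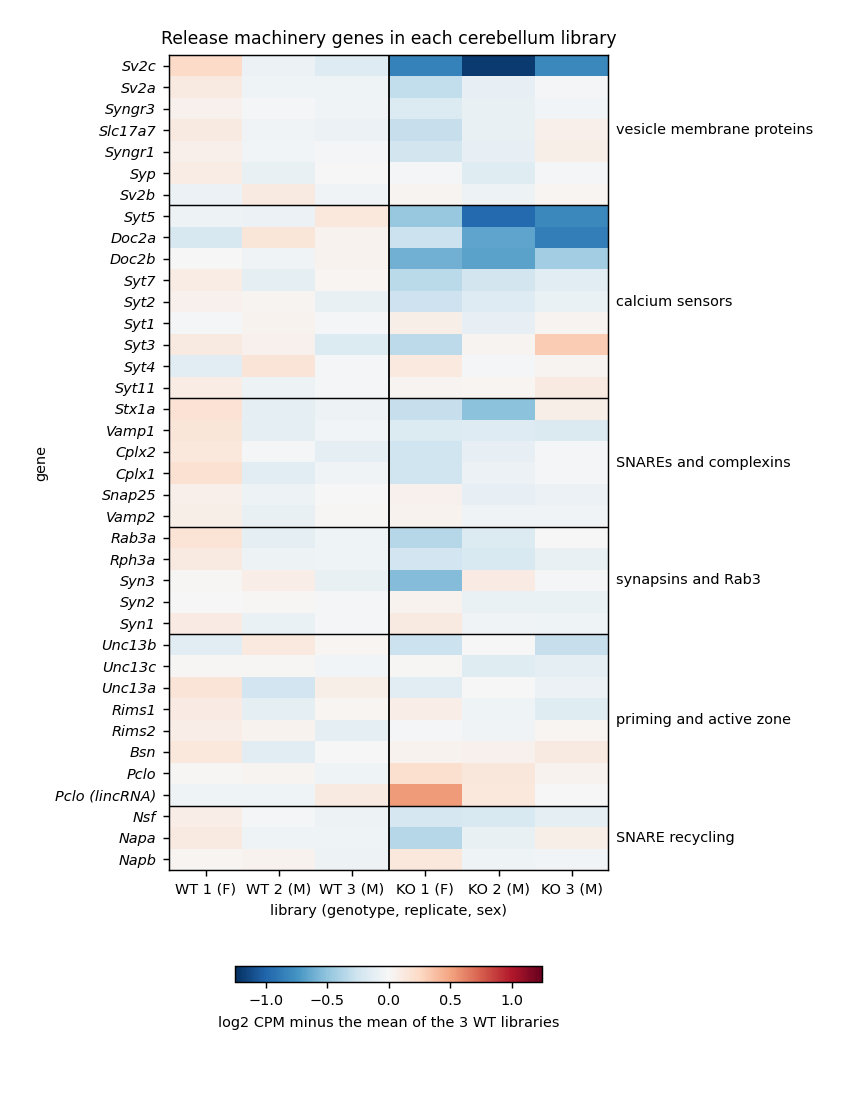
Log2 CPM of each member in each library minus the mean of the 3 WT libraries, ordered by role, with the 6 libraries as columns and colour from blue (lower) to red (higher). Among the members that are blue in all 3 KO columns are Sv2c, Doc2b, Syt5 and Doc2a. Many other members are bluer in KO replicate 1, the female, than in KO replicate 3.

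Of the 6 SNARE and complexin genes 0 passed, with all 6 fold changes below 0 (median -0.12). Snap25, the most abundant member at 498 ± 23.2 CPM per kb in WT (SD, n = 3), was at 3541, 3225 and 3377 CPM in WT and 3509, 3147 and 3218 CPM in KO. Vamp2, the main synaptobrevin of the brain, was at 973, 867 and 929 CPM in WT and 951, 892 and 893 CPM in KO. Both overlapped, with fold changes of -0.04 (SE 0.07) and -0.02 (SE 0.06). Vamp1, the synaptobrevin of hindbrain and spinal cord, was at 357, 297 and 314 CPM in WT and at 285, 289 and 285 CPM in KO. All KO mice lay below WT, the difference of -0.17 (SE 0.07) had an unadjusted p of 0.0409, and it did not pass over all genes (edgeR adjusted p = 0.533). The ratio of Vamp1 to Vamp2 was likewise lower in each KO mouse, at -1.74, -1.63 and -1.65 against -1.45, -1.54 and -1.57 in WT (exact permutation p = 0.1, n = 3 each, adjusted p = 0.333).

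Stx1a, which encodes a membrane syntaxin, was scarce, with 31 to 53 counts per library and 0.58 ± 0.07 CPM per kb in WT (SD, n = 3). Its log2 fold change was -0.23 (SE 0.24), and it did not pass (edgeR adjusted p = 0.828). The complexins clamp and promote fusion: Cplx1 averaged 614 ± 74.0 CPM in WT and 565 ± 45.2 CPM in KO, and Cplx2 1484 ± 127 and 1364 ± 107 CPM (SD, n = 3 each), and both overlapped. Their ratio to each other differed by 0.0072 between the genotypes (exact permutation p = 1, n = 3 each), with WT mice spread over a range that held all KO mice.

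**Figure D3:**
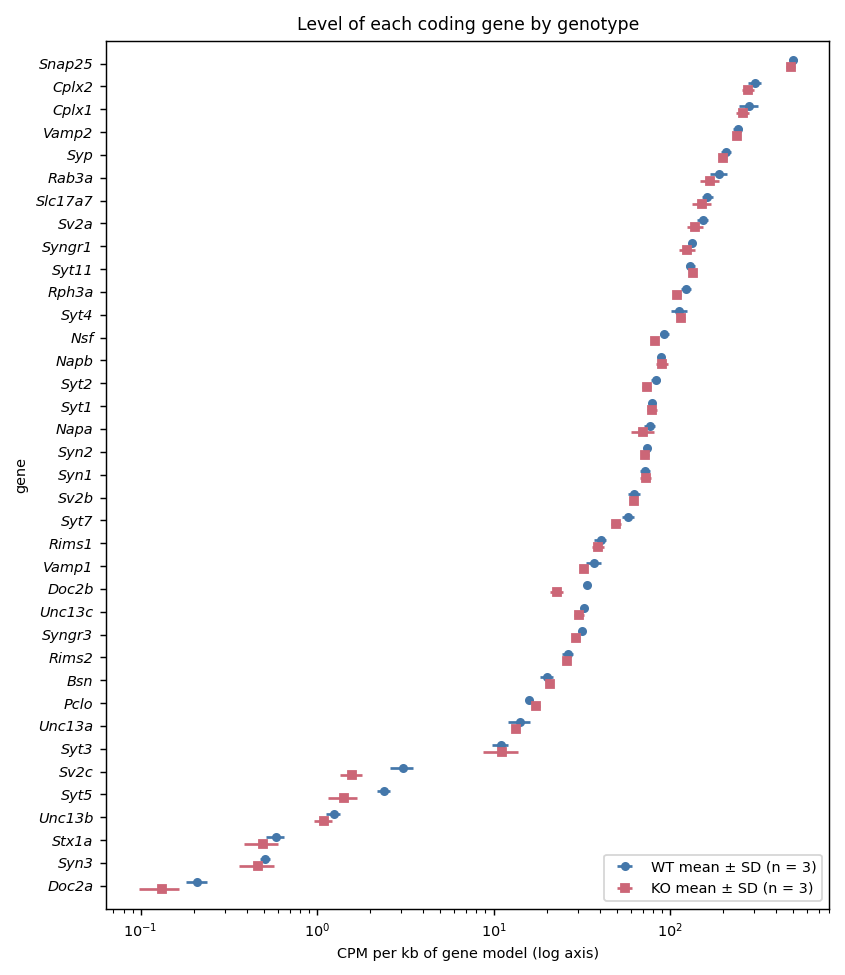
Mean level ± SD (n = 3 mice) of the 37 coding members in CPM per kb of gene model on a log axis, ordered by the WT level, with WT as circles and KO as squares. Levels run from Snap25 at 498 to Doc2a at 0.21 CPM per kb in WT. Sv2c, Syt5, Doc2a and Doc2b show visible gaps between genotypes, and of these Sv2c and Doc2b passed the test.

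SNARE complexes are taken apart after fusion by the ATPase NSF and its adaptors, the SNAPs encoded by Napa and Napb. Nsf was at 823, 763 and 741 CPM in WT and 669, 681 and 713 CPM in KO. No KO mouse reached the WT range, yet the difference of -0.17 (SE 0.07) did not pass over all genes (edgeR adjusted p = 0.509, unadjusted p = 0.0346). Napa was at 313, 279 and 279 CPM in WT and 226, 272 and 305 CPM in KO, so the female KO mouse was the lowest of the 6 and the groups overlapped. Napb was at 631 ± 24.5 and 637 ± 46.0 CPM (SD, n = 3 each).

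Synapsins tether vesicles in the reserve pool, and RAB3A with its effector rabphilin, encoded by Rph3a, guides them to the membrane. Syn1 was at 256, 226 and 235 CPM in WT and 258, 231 and 230 CPM in KO, and Syn2 at 422, 425 and 411 CPM against 433, 396 and 395 CPM. Neither differed beyond its spread, with fold changes of 0.0052 (SE 0.06) and -0.04 (SE 0.06). Syn3, the developmental form, held 108 to 200 counts per library. Rph3a was at 551, 488 and 491 CPM in WT and 430, 447 and 478 CPM in KO, a difference of -0.17 (SE 0.08) with no overlap that did not pass over all genes (edgeR adjusted p = 0.555, unadjusted p = 0.0492). Rab3a was at 475, 387 and 406 CPM in WT and 328, 373 and 422 CPM in KO, with overlap.

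The priming and active zone genes had the median nearest 0 of the 6 role groups, -0.03 over 8 models. Bsn and Pclo encode the giant scaffold proteins bassoon and piccolo, Rims1 and Rims2 the RIM organisers, and Unc13a, Unc13b and Unc13c the MUNC13 priming factors. Unc13c, the form of granule cells, was at 288, 289 and 278 CPM in WT and 287, 256 and 262 CPM in KO (log2 fold change -0.09, SE 0.06). Unc13a and Rims1 had fold changes of -0.07 (SE 0.10) and -0.04 (SE 0.07), Rims2 of -0.02 (SE 0.07) and Bsn of 0.07 (SE 0.07). Unc13b, at 15.1 to 18.2 CPM in WT, had -0.18 (SE 0.11).

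Coding Pclo was the only member with all KO mice above all WT mice, at 309, 314 and 296 CPM in WT and 351, 338 and 317 CPM in KO. The difference of 0.13 (SE 0.06) did not pass (edgeR adjusted p = 0.626). All KO mice lay above all WT mice in 7.77% of the genes tested. The second model named Pclo (ENSMUSG00000098239, a lincRNA on chromosome 5 at 14861407 to 14863459 in mm10) begins past the 3′ end of the coding gene, at 14860184. It was at 46.2, 46.2 and 51.8 CPM in WT and 69.2, 52.6 and 48.2 CPM in KO, and the high value was that of the female KO mouse (log2 fold change 0.22, SE 0.12, edgeR adjusted p = 0.663).

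**Figure D4:**
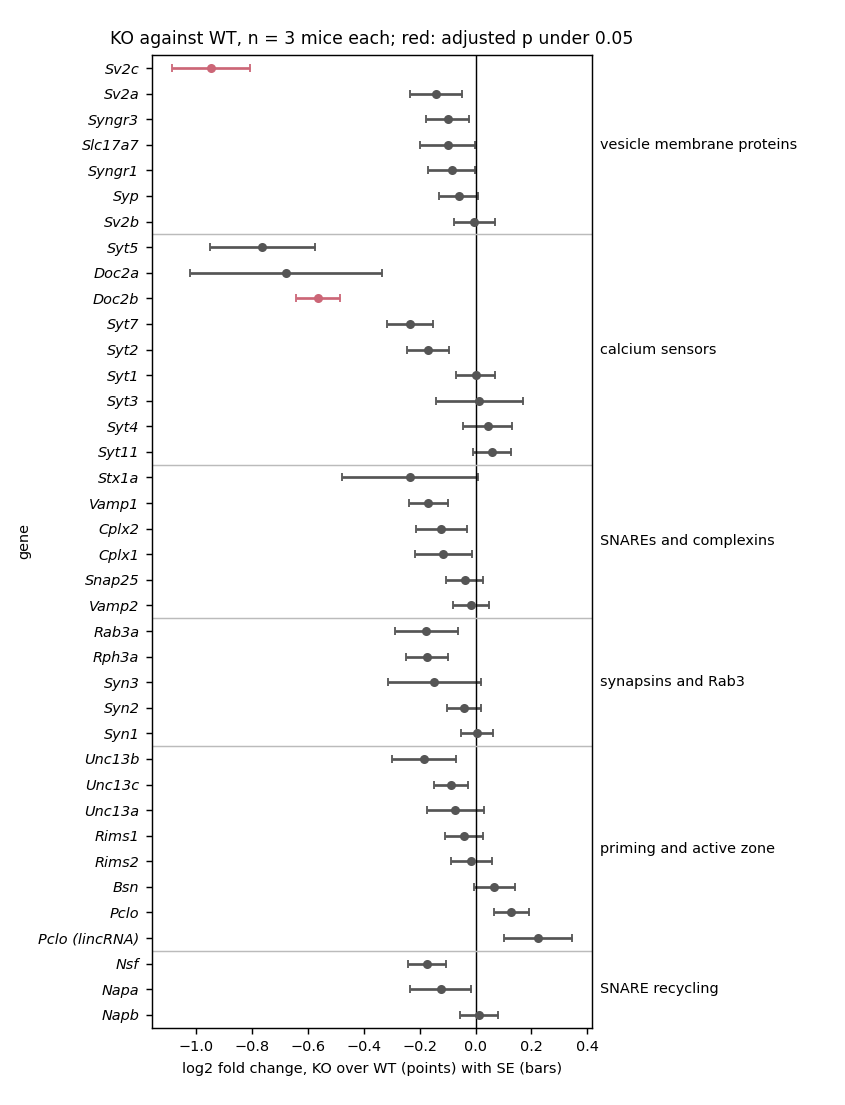
Log2 fold change of KO over WT for each member (point) with its SE (bar), by role; red marks an adjusted p under 0.05 in edgeR (n = 3 mice per genotype). Sv2c at -0.95 and Doc2b at -0.57 are red, and Syt5 at -0.76 and Doc2a at -0.68 lie between them with wider bars.

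Over the whole set, 29 of 38 models had a fold change below 0 (76.3%, against 49.9% of all genes tested), and the median was -0.09, against 2.9e-04 over all genes. Without Sv2c and Doc2b the median was -0.087, with 27 of 36 below 0. All KO mice lay below all WT mice in 8 of the 38 (21.1%, against 6.35% of all genes), namely Sv2c, Syt5, Doc2a, Doc2b, Syt7, Vamp1, Rph3a and Nsf. An unadjusted p under 0.05 with a lower level was reached by 7 (18.4%, against 4.25% of all genes), the same genes without Doc2a, and by 0 in the other direction (4.71% of all genes). These genes share cells and libraries and are not independent. They were also chosen with earlier results of these data known, so their shares are a description and not a test. The median of the set was -0.05 in the males alone, -0.04 without WT replicate 1, -0.05 without KO replicate 1 and -0.07 with the GC content and length trends of each library removed. The 36 models other than Sv2c and Doc2b passed in 0 of the alternative fits, DESeq2 and limma-voom included. DESeq2 called 1.03% of all genes lower and 0.615% higher, and limma-voom 0.165% and 0.136%, and of the members each called Sv2c and Doc2b lower and 0 higher.

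By value, the differences were larger in the female pair than in the males. The KO minus WT difference in log2 CPM was below 0 in 30 of 38 models in the females, with a median of -0.26, and in 24 of 38 in the males, with a median of -0.04. Rab3a differed by -0.53 between the females and by -4.1e-04 between the male means, Sv2a by -0.42 and -0.0040, Slc17a7 by -0.40 and 0.05, Napa by -0.47 and 0.05, and Cplx1 by -0.44 and 0.05. In an edgeR fit with a sex by genotype term, 0 members and 0 of all genes passed (lowest adjusted p of a member 0.0896). An unadjusted p under 0.05 for this term was reached by 12 of the 38 (31.6%, against 18.8% of all genes), 10 with a lower difference in females (13.3% of all genes) and 2 with a higher one (5.5%). This fit assumes that the lone female of each genotype varies like the males.

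GC content moved with the same difference. Of 37 members with known GC content, 16 were at 54.4% or more, and their median difference was -0.40 in the females, 15 of 16 below 0, and 8.2e-05 in the males, 8 of 16 below 0. The 17 members between 44.9% and 54.4% had medians of -0.11 and -0.05, and the 4 at 44.9% or less, the lower quartile bound, 0.05 and -0.06. The female KO library is the one in which GC-rich genes were lower over the whole table, as given above. Over these genes the median log2 difference from the WT mean was 0.08, -0.05 and -0.02 in WT replicates 1 to 3. Over all members it was 0.08, -0.05 and -0.04 in WT and -0.19, -0.09 and -0.03 in KO replicates 1 to 3. The female difference is taken between replicate 1 of each genotype, and the part of either library in it was not tested. With the GC content and length trends of each library removed, Sv2c stood at -0.97 (edgeR adjusted p = 0.00638) and Doc2b at -0.52 (edgeR adjusted p = 0.00351). In the same fit Sv2a stood at -0.11, Rab3a at -0.13, Cplx1 at -0.06, Slc17a7 at -0.03 and Syngr3 at -0.03. Each was nearer 0 than without it, and none of these 5 passed. Other members, among them Syt1 and Napb, moved away from 0. Of all 38 models, 31 were below 0 in this fit and 29 without it, with medians of -0.07 and -0.09. Of all genes tested, 52.2% were below 0 in this fit and 49.9% without it.

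**Figure D5:**
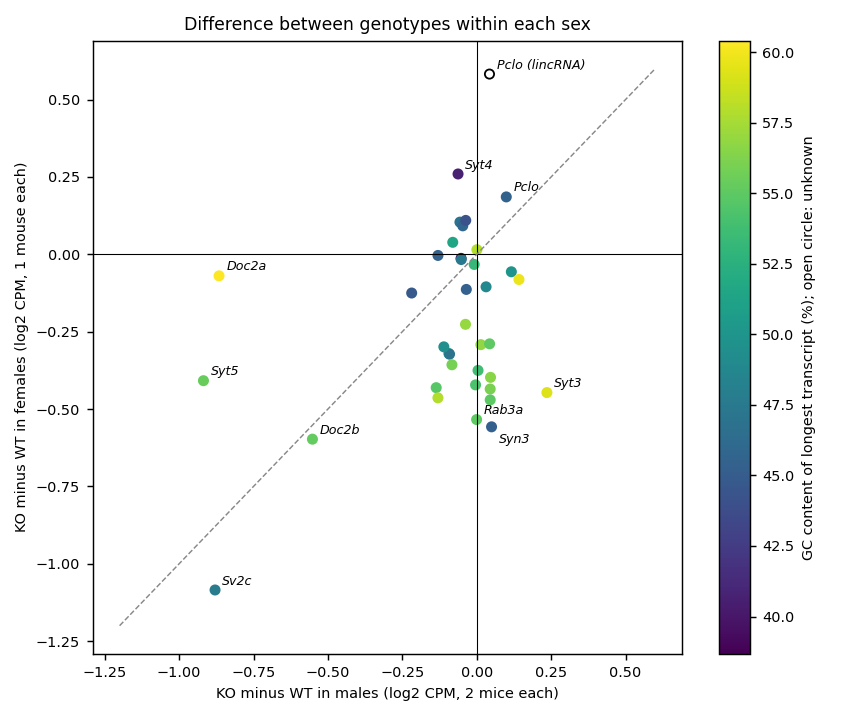
KO minus WT difference in log2 CPM for each member in males (x axis, 2 mice per genotype) and females (y axis, 1 mouse per genotype), coloured by GC content, with the line of equal difference dashed. Sv2c and Doc2b lie near the line, while Rab3a and many other GC-rich members lie near 0 in males and below 0 in females. Syn3, at 45.3% G and C and with few counts, lies there too.

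Other genes of the vesicle cycle, 107 symbols chosen by role, gave 106 models, of which 101 were tested. None passed in edgeR, DESeq2 or limma-voom (0 of 101 each). At an unadjusted p under 0.05 in edgeR 5 were lower and 1 was higher, beside 4.25% and 4.71% of all genes. Their median fold change was -0.06, with 68 below 0 (67.3%). Among vesicle transporters and the proton pump (17 tested) the smallest p-values were those of Slc32a1, the inhibitory transmitter transporter VGAT (log2 fold change -0.30, SE 0.15), the monoamine transporter gene Slc18a2 (-1.05, SE 0.55) and Atp6v1e1 (-0.08, SE 0.06). Slc18a2 held few counts, 15, 123 and 53 in WT and 16, 48 and 13 in KO replicates 1 to 3, and the groups overlapped. Among other SNARE genes (17) the smallest p-values were those of Sept5 (-0.29, SE 0.12), Snap47 (-0.18, SE 0.08) and Cplx3 (-0.47, SE 0.22).

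Among other C2-domain genes (16 tested) Syt14 was at 0.19 (SE 0.09), Sytl2 at 0.27 (SE 0.13) and Syt6 at -0.17 (SE 0.09). Among other active zone genes (15) Rimbp2, which encodes a binding partner of RIM and calcium channels, was at -0.44 (SE 0.18), Lin7a at 0.15 (SE 0.09) and Unc13d at -0.27 (SE 0.17). Of other vesicle proteins (15), Rab3d averaged 20.6 ± 0.88 CPM in WT mice and 16.6 ± 1.59 CPM in KO mice (SD, n = 3 each), and Synpr, which encodes synaptoporin, 86.7 ± 13.0 and 104 ± 5.26 CPM. In both the groups did not overlap, and edgeR adjusted p-values were 0.361 and 0.493. Of 21 genes of vesicle endocytosis, Ap2b1, a subunit of the clathrin adaptor AP-2, was at -0.16 (SE 0.06), Ston2 at -0.36 (SE 0.14) and Amph, the gene of amphiphysin, at -0.14 (SE 0.07). Adjusted p-values in edgeR of the 101 genes ran from 0.361 to 0.999.

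Reads of 24 of the 38 models can overlap another model of the table. In 7 the other model, on the opposite strand, had more than 10% of their counts: Syngr1, Doc2a, Syt2, Syn3, Syn2, Syn1 and Unc13a. Neither Sv2c nor Doc2b is among them. The members lie on 17 chromosomes, and Sv2c and Doc2b are not on chromosome 6, which carries Tmem106b.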

How the data were processed

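The deposited file is a table of raw counts of reads per gene for the 6 libraries, made by the authors, with gene coordinates and lengths. The submitters' processing notes name STAR and mm10. Which counting tool, strand setting and annotation release were used is not given in the sources used here. In R 4.3.3, edgeR 4.0.16 was run on these counts with filterByExpr (minimum count 10, minimum total 15), TMM scaling, terms for sex and genotype over all 6 libraries, and the robust legacy quasi-likelihood F test (residual degrees of freedom 3). The SE is the absolute log2 fold change over the square root of F. Differences within a sex take log2 CPM at a prior count of 2. Replicates are numbered in order of deposit, and libraries are labelled as separate mice. The members and gene lists were chosen with earlier results of these data known. All 37 symbols are named and, per related list, the genes with the 3 smallest p-values. Some genes of these lists are not reported here. Vamp7 had no match, and Sept5 was matched by identifier. GC content is that of the longest GENCODE M21 transcript. Alternatives included DESeq2 1.42.0 and limma-voom (limma 3.58.1). The fits were also run on simulated counts with known changes. These counts held no effect of sex, GC content or single libraries beyond depth, so they bear on none of these. The outcome is not reported here.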

Additional observations from a re-analysis of the deposited data

How the results depend on the processing

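Sv2c and Doc2b kept their direction in all 14 alternatives. Members called lower ranged from 0 to 2 when 1 library was left out, and were 2 in the other 8 fits; members called higher and related genes called were 0 in every fit. Genes called over the whole table depended on the setting. Lower calls, 25 as reported, were 44 with RLE size factors, 121 with no filter, 43 at a mean of at least 1 CPM, 141 in DESeq2, 169 with GC content and length offsets, 71 in males only and 1 to 89 with 1 library left out. Higher calls, 23 as reported, were 78 with no filter, 84 in DESeq2, 102 with the offsets, 40 in males only and 0 to 67 with 1 library left out. The cause was not tested. Without WT or KO replicate 1, the females, the genotype effect rests on the males.

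Signs turned only in members that did not pass. With the offsets Syt1 was at -0.038, Syt4 at -0.010, Vamp2 at 0.018 and Napb at -0.036. Syt1 was at -0.0034 with no filter and -9.8e-04 in limma-voom. In males only Slc17a7 was at 0.040, Syngr1 0.0078, Syt1 -0.054, Syt4 -0.074, Cplx1 0.036, Syn3 0.041, Syn1 -0.0076, Unc13a 0.028, Rims2 0.021, Napa 0.039 and Napb -0.046. With 1 library left out the ranges were -0.17 to 0.048 for Slc17a7, -0.15 to 0.016 for Syngr1, -0.066 to 0.058 for Sv2b, -0.054 to 0.058 for Syt1, -0.12 to 0.24 for Syt3, -0.074 to 0.13 for Syt4, -0.19 to 0.0039 for Cplx2, -0.19 to 0.044 for Cplx1, -0.049 to 0.0089 for Vamp2, -0.26 to 0.0017 for Rab3a, -0.26 to 0.049 for Syn3, -0.011 to 0.027 for Syn1, -0.19 to 0.035 for Unc13a, -0.081 to 0.0094 for Rims1, -0.073 to 0.029 for Rims2, -0.20 to 0.047 for Napa and -0.046 to 0.056 for Napb. For log2 ratios they were -0.16 to 0.21 for Doc2b to Doc2a, -0.058 to 0.043 for Cplx1 to Cplx2, -0.092 to 0.0032 for Syn2 to Syn1, -0.10 to 0.11 for Unc13c to Unc13a, -0.049 to 0.11 for Rims2 to Rims1 and -0.037 to 0.26 for Napb to Napa.

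No paired analysis was possible because replicate numbers only follow the order of deposit. Doc2a, Stx1a, Syt5 and Syn3 hold few counts, which limits their precision.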
